A study of Mus musculus with 24 samples.

Results

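The genes described here encode the machinery of oxidative phosphorylation, with values in satellite cells and endothelial cells sorted from injured mouse muscle. Members were chosen by gene symbol: every probe set whose single symbol starts with Nduf, Uqcr, Atp5, Cox4i, Cox5, Cox6, Cox7 or Cox8, and Sdha, Sdhb, Sdhc, Sdhd and Cyc1, with pseudogene symbols left out. This gave 84 genes of the 23281 probe sets that carry a gene symbol. By complex they were 33 subunits of complex I, 8 complex I assembly factors (symbols starting with Ndufaf), 4 subunits of complex II, 8 of complex III, 19 of complex IV and 12 of complex V. The assembly factors are not subunits and are counted on their own throughout. Of the 84 members, 82 lay above the array median on at least 3 arrays and were tested. Cox7b2 and Cox8c, isoforms known from testis, did not pass, with group means of 1.89 to 2.12 and 2.60 to 2.77 on the log2 scale. Subunits encoded by mitochondrial DNA were not analysed here.

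The tibialis anterior muscle of mice was injured with cardiotoxin, a snake venom toxin that lyses muscle fibres while sparing many satellite cells, the stem cells of muscle. Satellite cells were sorted as CD45-, Sca1-, CD31- and alpha7-integrin+ cells with positive or low CD34, and endothelial cells as CD45-, Sca1+, CD34+ and CD31+ cells. Uninjured muscle (day 0) and muscle 2, 4 and 8 days into repair gave 8 groups of 3 samples labelled as biological replicates, each read on 1 Affymetrix gene array (24 arrays) after its picogram amounts of RNA were amplified to cDNA. No genetic change or drug other than cardiotoxin is labelled. The labels used here give no strain, age, sex or number of animals per array, so p-values measure the spread between these samples only.

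Oxidative phosphorylation makes ATP in the inner mitochondrial membrane. Complexes I and II pass electrons from NADH and succinate to ubiquinone, complex III passes them to cytochrome c, and complex IV passes them to oxygen. Complexes I, III and IV pump protons, and complex V, the ATP synthase, uses the proton gradient to make ATP. Quiescent satellite cells are known for low mitochondrial activity, which increases on activation and differentiation, and endothelial cells for a strong reliance on glycolysis. Several complex IV subunits exist as paired isoforms: Cox6a2, Cox7a1 and Cox8b are the forms of heart and skeletal muscle, and Cox6a1, Cox7a2 and Cox8a their widely expressed counterparts. Cox4i2 and Ndufa4l2 are isoforms tied to low oxygen and to cells of the vessel wall, paired with Cox4i1 and Ndufa4.

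Promoters of nuclear subunit genes are known for sites of NRF1 and of ETS factors such as GABP. RefSeq promoter windows from 250 bases before to 30 bases after the start (GRCm38.p6) were found for 68 of the members, in 73 windows. The 4 windows below belong to 3 genes that rose after injury in satellite cells, Sdhd, Uqcrc1 and Atp5md, and to Cox8b, a muscle isoform with another pattern. Each is written 5′ to 3′ on the gene's strand, and capitals mark an NRF1 match (GCGCANGCGC), an ETS match (CCGGAAG) or an E-box (CAGCTG), on either strand.
Sdhd, chr9:50603820-50604099, minus strand: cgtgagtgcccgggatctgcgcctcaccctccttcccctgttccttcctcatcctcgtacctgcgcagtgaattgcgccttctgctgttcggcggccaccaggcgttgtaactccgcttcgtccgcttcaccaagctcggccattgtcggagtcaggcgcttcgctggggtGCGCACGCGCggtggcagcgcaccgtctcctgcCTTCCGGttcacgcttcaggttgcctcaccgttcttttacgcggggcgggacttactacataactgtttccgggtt
Uqcrc1, chr9:108936398-108936677, plus strand: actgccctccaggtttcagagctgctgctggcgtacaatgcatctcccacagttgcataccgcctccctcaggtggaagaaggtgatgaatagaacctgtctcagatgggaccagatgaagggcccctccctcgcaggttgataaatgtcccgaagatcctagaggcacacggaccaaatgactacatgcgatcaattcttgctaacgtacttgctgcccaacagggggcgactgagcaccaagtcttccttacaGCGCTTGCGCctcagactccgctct
Atp5md, chr19:47090618-47090897, minus strand: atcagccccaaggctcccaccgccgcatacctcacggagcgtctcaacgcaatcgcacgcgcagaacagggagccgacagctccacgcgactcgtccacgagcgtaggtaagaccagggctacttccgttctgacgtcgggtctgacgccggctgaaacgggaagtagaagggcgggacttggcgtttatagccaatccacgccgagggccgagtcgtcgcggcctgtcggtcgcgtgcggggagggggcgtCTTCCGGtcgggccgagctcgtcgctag
Cox8b, chr7:140900417-140900696, minus strand: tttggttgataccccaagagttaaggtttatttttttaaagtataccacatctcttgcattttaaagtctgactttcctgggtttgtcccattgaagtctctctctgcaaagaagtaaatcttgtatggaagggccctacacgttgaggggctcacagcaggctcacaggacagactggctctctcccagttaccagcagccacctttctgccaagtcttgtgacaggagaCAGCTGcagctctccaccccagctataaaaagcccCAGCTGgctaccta

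An NRF1 match lay in 20.5% of the member windows and in 4.41% of all 32841 windows of the same length. The members with it were Atp5c1, Atp5g3, Atp5k, Atp5o, Cox6a1, Ndufa11, Ndufa5, Ndufa8, Ndufaf4, Ndufaf5, Ndufs6, Sdha, Sdhd and Uqcrc1, 14 genes from every complex. An ETS match lay in 23.3% of member windows and 8.45% of all windows, in 17 members that include Sdhb, Sdhd, Cox6b1, Cox8a, Uqcrh and Atp5md. The E-box, a site for myogenic factors, was in 6.85% of member windows and 14.9% of all windows, in Atp5b, Cox8b, Ndufa8, Ndufb10 and Ndufv2. Matches for YY1 (AAGATGGCG) lay in 2.74% of member and 1.05% of all windows, and for ERR receptors (TNAAGGTCA) in 1.37% and 1.25%. The MEF2 motif was in no member window and in 0.536% of all windows. These are letter matches on either strand, which may overlap, and they describe the windows only.

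Groups follow the sample titles; a second label for cell type contradicts them for 12 samples, and one for time for 18. Pecam1 and Cdh5, genes of endothelial junctions, and Itga7, the gene of alpha7-integrin, separated the titles' cell types on every day, although Pecam1, the gene of CD31, reached 10.78 in CD31- sorted satellite cells on day 2 and was 11.29 to 11.70 in endothelial cells. Pax7, the defining factor of satellite cells, was 8.76 to 9.80 in satellite cells on day 0 but 4.67 to 5.70 on day 2, overlapping the 4.22 to 5.10 of endothelial cells. On those day 2 satellite arrays all 19 leukocyte markers lay above the array median, with a summed linear level of 13370 to 32830 against 294.3 to 476.8 on day 0, although CD45+ cells were gated out. On days 4 and 8 the sums were 4239 to 9045 and 1105 to 3350. In endothelial cells they were 383.4 to 476.6 on day 0 and 1756 to 7304, 2179 to 8846 and 789.7 to 1496 on days 2, 4 and 8. Endothelial markers in satellite cells summed to 1309 to 1591 on day 0 and to 2245 to 8383 on day 2, highest in replicate 2, and remained above day 0 at 2491 to 4040 on day 4 and 2757 to 5164 on day 8. Markers of differentiating muscle cells had list means of 5.30 to 5.50 in satellite cells on day 0, 4.80 to 5.24 on day 2, 8.03 to 8.66 on day 4 and 7.63 to 8.33 on day 8. The myofibre list had means of 6.72 to 7.04 on day 0 and 7.38 to 7.87 on day 4. The part of these cells in the results was not tested. In sorted populations, fewer cells of a type and less RNA per cell cannot be told apart. Satellite day 2 replicate 2 and satellite day 8 replicate 1 stood apart from their groups on marker lists. Endothelial day 0 replicate 3 had the lowest mean over all members in its group, 7.48, where the highest was 7.79. Other groups spread on marker lists too: the leukocyte list means of endothelial day 2 ran from 5.80 to 8.08. Counts were recomputed without the 3 named arrays, which were picked after the values were seen.

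In satellite cells, the mean over all members was 7.71, 7.97 and 7.95 on the day 0 arrays and 7.76, 8.00 and 7.91 on day 2. It was 8.12, 8.15 and 8.28 on day 4 and 8.12, 8.49 and 8.58 on day 8, so every day 4 and day 8 array lay above every day 0 array. In endothelial cells the means were 7.79, 7.75 and 7.48 on day 0, 7.91, 7.87 and 7.88 on day 2, 7.75, 7.68 and 7.70 on day 4 and 7.73, 7.56 and 7.45 on day 8. The highest endothelial values were on day 2, above all of day 0, and days 4 and 8 overlapped day 0. The map of members by array shows the same shift over most rows of each complex, and rows of complex IV that follow other patterns.

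**Figure D1:**
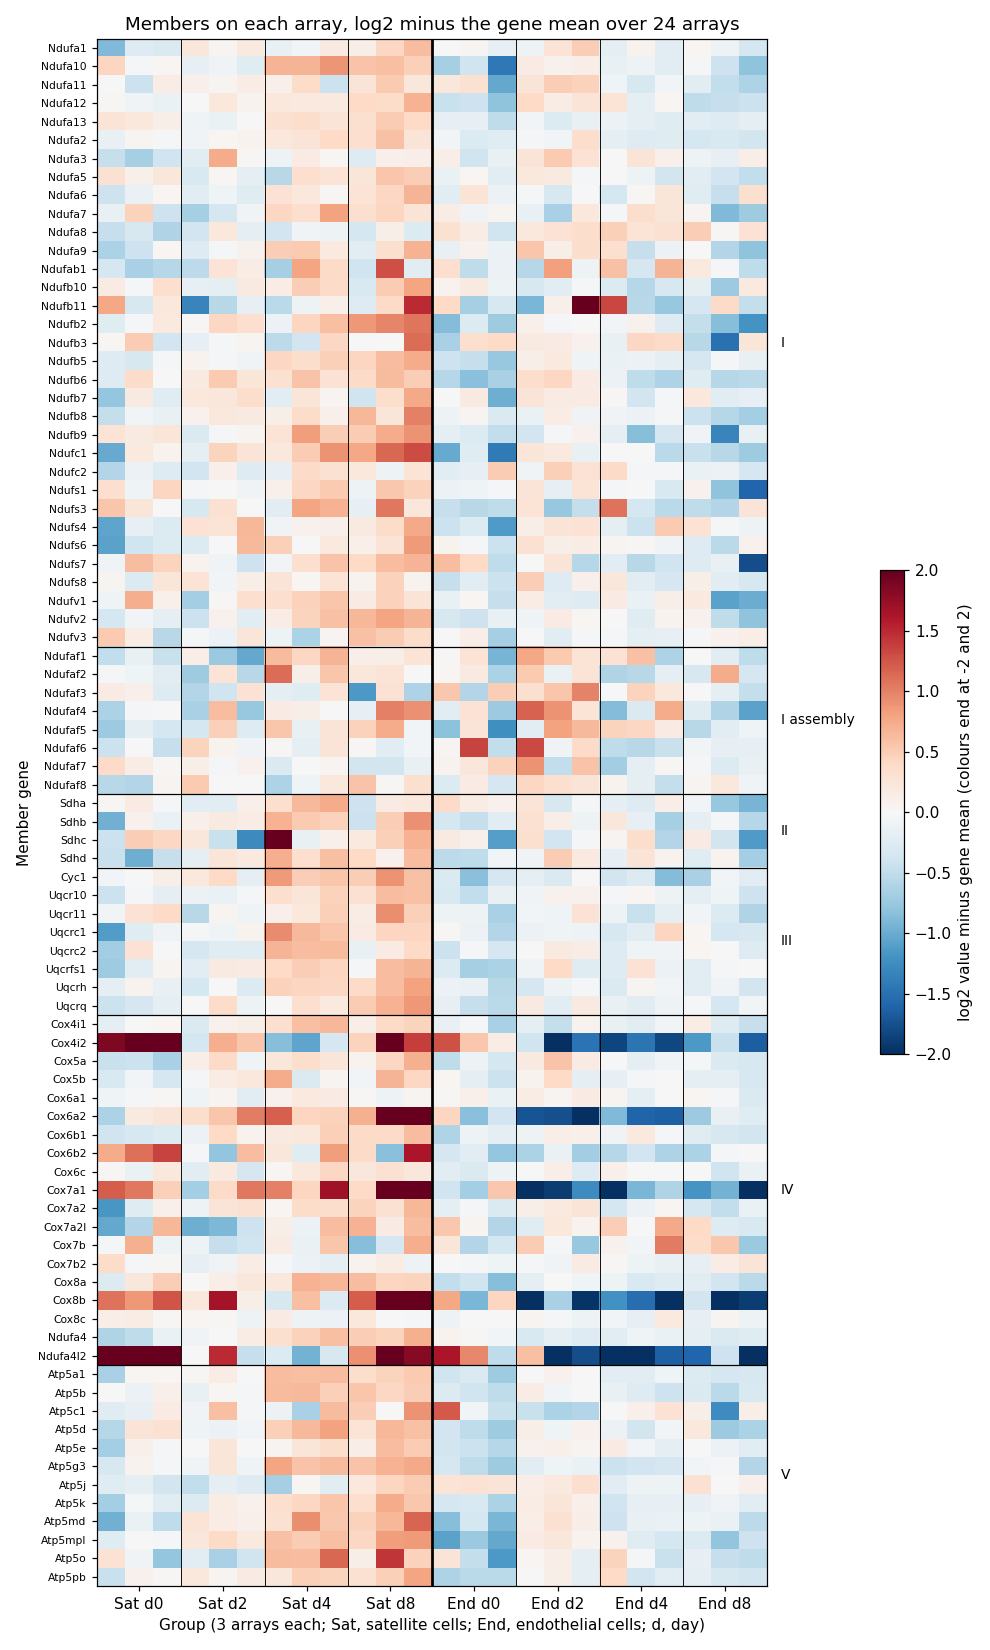
Log2 value of each of the 84 members on each of the 24 arrays, minus that gene's mean over the 24 arrays (rows grouped by complex, columns by group, 3 arrays each; colours end at -2 and 2). Most rows are redder in satellite cells on days 4 and 8, and Cox4i2, Ndufa4l2, Cox6a2, Cox7a1 and Cox8b stand out from the other rows of complex IV.

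On day 4 after injury, 2 of 4 members of complex II, 4 of 8 of complex III and 6 of 12 of complex V rose in satellite cells, led by Uqcrc1, Sdhd and Atp5md at 2.18- to 2.29-fold. In all, 17 of the 82 tested members rose and 2 fell, where 9.34% of the 14064 genes tested rose and 7.29% fell (limma's moderated test, adjusted p under 0.05 over all genes tested). With a log2 difference of at least 1 as well, 3 of the 82 rose and 2 fell. These shares are below the 6.53% and 5.47% of all genes tested. The median log2 difference of the members was 0.48, against 0.01 over all genes tested, and 70 of 82 differences were positive. All 3 day 4 arrays lay above all 3 day 0 arrays for 43 members, which 16.8% of all genes tested did. Fitted on the 2 groups of this comparison alone, 6 members were called rather than 19, and without satellite day 0 replicate 1 there were 12.

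Complex II, which is also an enzyme of the citric acid cycle, had 2 of 4 members higher. Sdhd, a membrane anchor subunit, read 7.17, 6.65 and 7.17 on day 0 and 8.35, 7.96 and 8.23 on day 4, a log2 difference of 1.18 (SE 0.24, 2.27-fold, limma adjusted p = 0.00137). The 2 groups did not overlap, and Sdhd was above day 0 on day 2 (7.43, 7.86 and 7.81) and on day 8 (8.02, 7.70 and 8.25) as well. It rose by 0.71 on day 2 (adjusted p = 0.0304) and by 1.00 on day 8 (adjusted p = 0.00967). Sdhb, the iron-sulfur subunit, rose by 0.90 on day 4 (SE 0.30, adjusted p = 0.0437), a call lost in 16 of 34 alternative settings. Sdha, the flavoprotein, differed by 0.52 (95% interval 0.03 to 1.01, adjusted p = 0.146) and Sdhc, the other anchor, by 0.54 (interval -0.52 to 1.60), and neither passed the test.

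In complex III, 4 of 8 members rose on day 4: Uqcrc1, Uqcrc2, Uqcrfs1 and Uqcr10. Uqcrc1, a core protein of the complex, read 6.83, 7.71 and 7.88 on day 0 and 8.90, 8.59 and 8.50 on day 4, a difference of 1.19 (SE 0.25, 2.29-fold, adjusted p = 0.00198). The groups did not overlap, and day 0 replicate 1 was the lowest of these 6 arrays. Uqcrc2, the second core protein, rose by 0.78 (adjusted p = 0.0143) and Uqcrfs1, the Rieske iron-sulfur protein, by 0.73 (adjusted p = 0.0387). Cyc1, the cytochrome c1 subunit, read 7.91, 7.96 and 8.09 on day 0 and 8.83, 8.47 and 8.53 on day 4. Its difference of 0.62 (interval 0.16 to 1.09, adjusted p = 0.0605) did not pass although the groups did not overlap.

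Complex V had 6 of 12 members higher on day 4. Atp5md, a small membrane subunit known for holding ATP synthase dimers, read 8.35, 9.18 and 8.79 on day 0 and 9.61, 10.23 and 9.84 on day 4, a difference of 1.12 (SE 0.24, 2.18-fold, adjusted p = 0.00207). Atp5a1 and Atp5b, the genes of the alpha and beta subunits, rose by 0.80 (limma adjusted p = 0.00341) and 0.59 (adjusted p = 0.0113). Atp5g3, which encodes the proton-carrying c subunit, read 9.10, 9.49 and 9.40 on day 0 and 10.22, 10.00 and 10.06 on day 4, a difference of 0.76 (SE 0.18, adjusted p = 0.00557). Atp5k, subunit e, and Atp5mpl, a small proteolipid, were the other members that rose.

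Complex I and complex IV had 2 of 33 and 3 of 17 members higher on day 4. Of the 33 subunits of complex I, Ndufs6 and Ndufb5 rose, by 0.81 and 0.61, and the median was 0.33. The catalytic core subunits Ndufs1 and Ndufv1 differed by 0.13 (interval -0.48 to 0.73) and 0.20 (interval -0.43 to 0.83). None of the 8 assembly factors passed. In complex IV, Ndufa4, Cox5a and Cox6b1 rose and Cox4i2 and Ndufa4l2 fell, of 17 tested. Cox5a, a subunit with no tissue isoform, read 8.64, 8.65 and 8.43 on day 0 and 9.31, 9.43 and 9.32 on day 4, a difference of 0.78 (SE 0.19, adjusted p = 0.00702).

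Ndufa4, once classed with complex I and since assigned to complex IV, was called higher on all 3 days after injury. It read 9.23, 9.33 and 9.70 on day 0, 9.77, 9.84 and 9.98 on day 2, 10.15, 10.29 and 10.44 on day 4 and 10.33, 10.28 and 10.55 on day 8. The days after injury all lay above day 0, by 0.44 on day 2 (SE 0.16, adjusted p = 0.0457), 0.87 on day 4 (adjusted p = 0.000656) and 0.96 on day 8 (adjusted p = 0.000471). The day 2 call was lost in 23 of 34 alternative settings, and those of days 4 and 8 in 2 each. In endothelial cells it read 9.90, 9.87 and 9.78 on day 0 and 9.54 to 9.76 on the later days, with no difference from day 0 that passed the test.

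**Figure D2:**
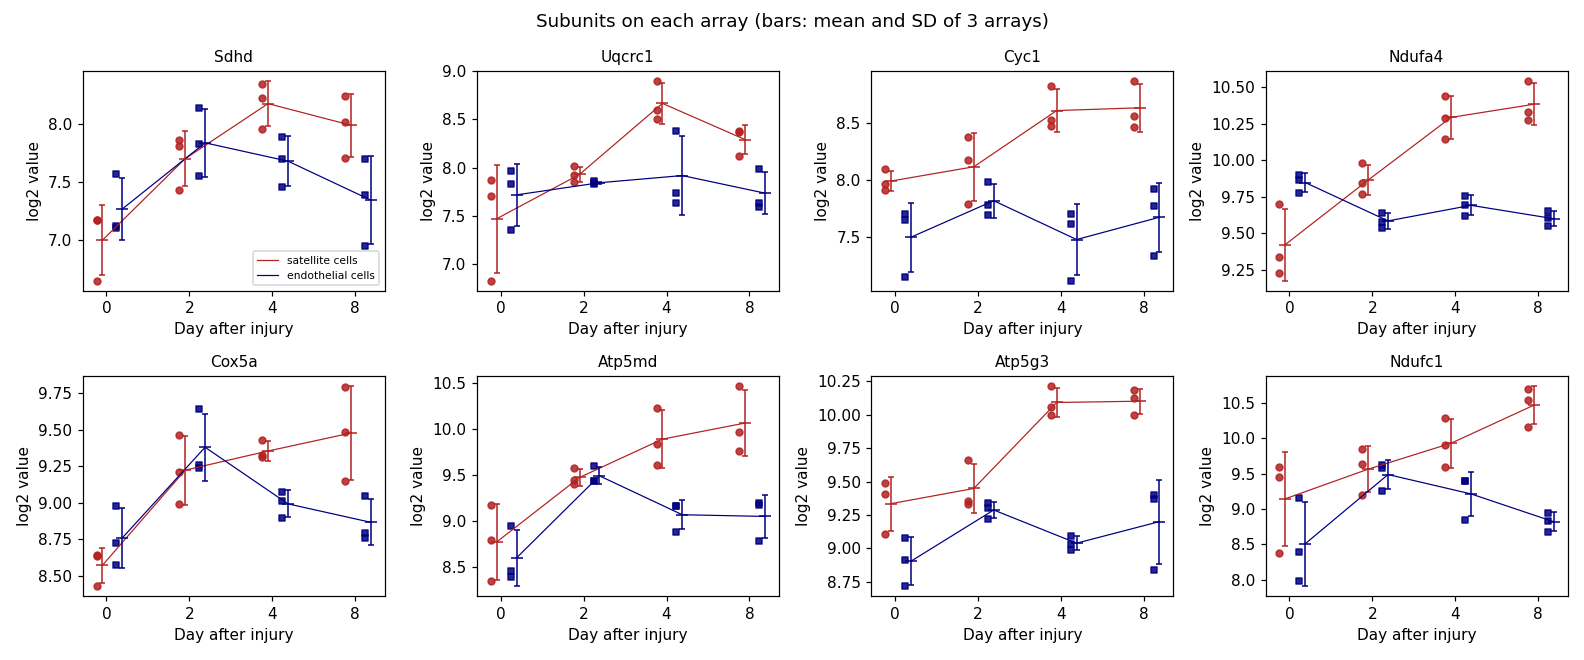
Log2 values of 8 subunits on each array by day (x axis, days after injury; red circles, satellite cells; blue squares, endothelial cells; lines and bars, mean and SD of 3 arrays). In satellite cells Sdhd, Uqcrc1, Ndufa4, Atp5md and Atp5g3 on day 4 lie above all 3 day 0 arrays, and in endothelial cells Cox5a and Atp5md are highest on day 2.

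On day 8, 25 of 82 members rose in satellite cells and none fell, where 5.87% of all genes tested rose and 2.90% fell. The median difference was 0.55 (all genes tested, -0.01) and 75 of 82 were positive. The groups did not overlap, with day 8 higher, for 44 members, against 14.6% of all genes. Of the 82, 4 rose by a log2 difference of at least 1, a share near the 4.38% of all genes tested: Cox6a2, Ndufc1, Atp5md and Uqcrq. The count was 2 when only the 2 groups of the comparison were fitted, 15 without satellite day 0 replicate 1 and 14 without satellite day 8 replicate 3.

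Complex I accounted for 9 of the 25, and the change between days 4 and 8 was not tested. These were Ndufa1, Ndufa12, Ndufb2, Ndufb5, Ndufb8, Ndufc1, Ndufs4, Ndufs6 and Ndufv2, and all but Ndufv2, which carries an iron-sulfur cluster, are accessory subunits. Ndufc1 read 8.38, 9.59 and 9.46 on day 0 and 10.17, 10.55 and 10.69 on day 8, a difference of 1.32 (SE 0.31, 2.50-fold, adjusted p = 0.00898). The groups did not overlap, and day 0 replicate 1 was the lowest array. The core subunits Ndufs1 and Ndufv1 did not pass on day 8 either and differed by 0.07 (interval -0.53 to 0.68) and 0.04 (interval -0.59 to 0.67). All 33 subunits had a positive difference, with a median of 0.45.

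Complexes III, IV and V had 4 of 8, 5 of 17 and 6 of 12 members higher on day 8, and complex II 1 of 4. Uqcrq, a small complex III subunit near the ubiquinone site, read 8.72, 8.82 and 8.99 on day 0 and 9.67, 9.86 and 10.04 on day 8, a difference of 1.01 (SE 0.19, 2.02-fold, adjusted p = 0.00123). It kept its call in every alternative setting tried. Uqcrc1 differed by 0.82 (adjusted p = 0.0452), a call lost in 20 of 34 settings. Atp5md differed by 1.30 (SE 0.24, 2.46-fold, adjusted p = 0.00108), with 9.76, 9.97 and 10.47 on day 8. In complex IV the members that rose were Cox6a2, Cox5a, Cox6b1, Cox7a2 and Ndufa4. None of the 8 assembly factors passed.

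On day 2, when the satellite arrays carried the high leukocyte signal and the low Pax7 given above, few members passed the test. Higher values passed for 7 of 82 members, Ndufs4, Sdhd, Atp5md, Ndufa3, Cox5a, Ndufa1 and Ndufa4, and lower ones for Cox4i2 and Ndufa4l2. Of all genes tested 14.7% rose and 13.5% fell, so the members' shares were below the background, and their median was 0.08 (all genes, -0.03). Ndufs4, an accessory subunit of complex I, had the largest rise, 0.91 (SE 0.27, adjusted p = 0.016), with 7.02, 7.91 and 7.81 on day 0 and 8.36, 8.36 and 8.74 on day 2. When quantile normalization was repeated, the split turned to 1 higher and 6 lower, so no direction holds for the members as a group on this day. The count of 9 became 5 without satellite day 0 replicate 1 or without day 2 replicate 2, 4 without day 2 replicate 3, and 2 on the groups of the comparison alone.

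**Figure D3:**
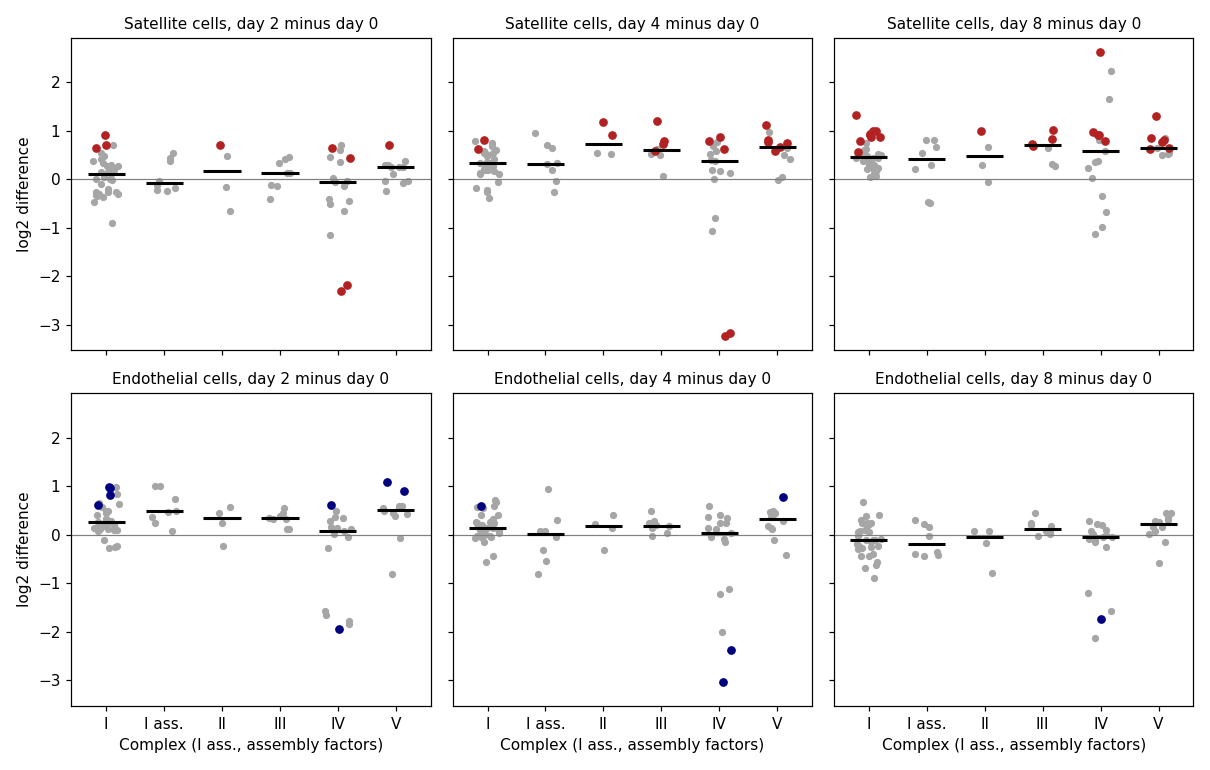
Log2 difference from day 0 for each of the 82 tested members (points) by complex, in satellite cells (upper panels) and endothelial cells (lower panels) on days 2, 4 and 8. Coloured points passed the test, grey points did not, and black lines are the medians of a complex; satellite medians lie above 0 for every complex on days 4 and 8.

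In endothelial cells the members that changed were few and mostly on day 2, the day with most calls among all genes tested too. There 7 of 82 rose and 1 fell, where 5.08% of all genes tested rose and 3.81% fell. The median was 0.33 (all genes, -0.01), and 68 of 82 differences were positive. Atp5mpl read 8.27, 8.58 and 8.31 on day 0 and 9.49, 9.55 and 9.40 on day 2, a difference of 1.09 (SE 0.18, 2.13-fold, adjusted p = 0.000715). The groups did not overlap, and the call held in every alternative setting tried. Ndufb6, an accessory subunit of complex I, read 8.45, 8.19 and 8.38 on day 0 and 9.37, 9.43 and 9.18 on day 2, a difference of 0.99 (SE 0.20, adjusted p = 0.00285). Ndufa10, Ndufa12, Ndufb5, Atp5md and Cox5a rose as well, and Cox4i2 fell. Without endothelial day 0 replicate 1 the count of 8 was 5, and it was 4 without endothelial day 0 replicate 3 or day 2 replicate 2.

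By day 4 endothelial cells had 2 members higher, Atp5mpl (0.78, adjusted p = 0.0118) and Ndufa12 (0.59, adjusted p = 0.0398), and 2 lower, Cox4i2 and Ndufa4l2. Of all genes tested 3.75% rose and 2.75% fell, and the members' median was 0.14. Leaving out endothelial day 0 replicate 1 or day 4 replicate 1 left 2 calls. On day 8 no member rose (1.23% of all genes tested did in limma's test), and Cox4i2 alone fell (1.02% of genes). The median was 0.02. Sdha had a difference of -0.79 (interval -1.28 to -0.30, adjusted p = 0.0886), which did not pass.

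Cox4i2 and Ndufa4l2 were the members that fell after injury, in both cell types. Cox4i2, in satellite cells, read 8.06, 9.05 and 8.94 on day 0, 5.84, 6.92 and 6.74 on day 2, 5.34, 5.14 and 5.86 on day 4 and 6.63, 8.43 and 7.58 on day 8. It fell by 2.18 on day 2 (SE 0.46, 4.54-fold lower, adjusted p = 0.000997) and by 3.23 on day 4 (9.41-fold lower, adjusted p = 3.52e-05), with no overlap. On day 8 the groups overlapped, and the difference of -1.13 did not pass (adjusted p = 0.138). In endothelial cells it read 7.47, 6.73 and 6.34 on day 0, 5.79, 4.18 and 4.72 on day 2, 4.35, 4.72 and 4.36 on day 4 and 5.05, 5.75 and 4.55 on day 8. These later values are near the array medians, which lie between 4.11 and 4.40, so no fold is given. Cox4i2 fell by 1.95 on day 2 (adjusted p = 0.00963), by 2.37 on day 4 (adjusted p = 0.00248) and by 1.73 on day 8 (adjusted p = 0.0494, a call lost in 21 of 34 settings). Its partner Cox4i1 passed in no comparison with day 0, and its satellite values were 10.04 to 10.26 on day 0 and 9.93 to 10.88 later.

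Ndufa4l2 read 9.63, 10.56 and 10.44 in uninjured satellite cells, 7.57, 9.04 and 7.10 on day 2, 7.27, 6.61 and 7.23 on day 4 and 8.47, 9.81 and 9.37 on day 8. It fell by 2.30 on day 2 (SE 0.67, 4.94-fold lower, adjusted p = 0.0121) and by 3.17 on day 4 (8.99-fold lower, adjusted p = 0.00196), and on day 8 the difference was -0.99 (adjusted p = 0.418). In endothelial cells it read 9.18, 8.52 and 7.04 on day 0, 8.16, 5.50 and 5.79 on day 2, 4.56, 5.18 and 5.92 on day 4 and 5.97, 7.15 and 5.25 on day 8. It fell on day 4 by 3.03 (adjusted p = 0.00652), and the differences on days 2 and 8, -1.77 and -2.13, did not pass.

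Markers of pericytes and smooth muscle, which share the vessel wall, were also lower after injury when summed, but not each of them. On day 8 in endothelial cells Abcc9, Kcnj8, Pdgfrb and Rgs5 were called lower than on day 0. Mcam was called higher (1.52, limma adjusted p = 0.0273), and Cnn1 and Acta2 had positive differences that did not pass. In satellite cells the list mean was 7.21 on day 2 and 7.29 on day 4, but single markers went both ways. From day 2 to day 4, the means of Kcnj8 (6.80 to 6.20), Abcc9 (7.48 to 6.96) and Higd1b (5.70 to 4.24) went down. Those of Cox4i2 and Ndufa4l2 were lower on day 4 too, while that of Notch3 went up (6.72 to 8.05). Of the 14 markers on that list all lay above the array median on each day 0 satellite array, and 12 or 13 on each day 4 array. Their summed linear level in satellite cells was 14510 to 21390 before injury, 1870 to 6495 on day 2, 3990 to 4827 on day 4 and 8941 to 12570 on day 8. In endothelial cells it was 4659 to 7431, 2317 to 3858, 1876 to 2949 and 2343 to 2493. Rgs5, a pericyte gene, averaged 11.82 in satellite cells before injury, 9.47 on day 4 and 11.40 on day 8. The part of such cells in the course of Cox4i2 and Ndufa4l2 was not tested.

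The 3 striated muscle isoforms of complex IV were highest on day 8, on 2 of the 3 satellite arrays. Cox6a2 read 6.35, 7.17 and 7.23 on day 0, 7.33, 7.54 and 8.01 on day 2, 8.18, 7.42 and 7.44 on day 4 and 7.70, 10.24 and 10.67 on day 8. The day 8 difference of 2.62 (SE 0.51, 6.15-fold, adjusted p = 0.00209) passed, with replicate 1 far below the other arrays of its group. Cox8b read 7.33, 7.12 and 7.51 on day 0, 5.92, 6.84 and 5.98 on day 4 and 7.46, 10.46 and 10.72 on day 8, a difference of 2.23 (SE 0.73, adjusted p = 0.0625) in which the groups overlapped. Cox7a1 read 7.63, 7.47 and 6.89 on day 0 and 6.81, 9.70 and 10.44 on day 8, a difference of 1.65 (SE 0.69, adjusted p = 0.156). Without satellite day 8 replicate 1 the Cox6a2 difference was 3.54 (limma adjusted p = 2.6e-06). Those of Cox8b and Cox7a1 were 3.27 (adjusted p = 0.00283) and 2.74 (adjusted p = 0.00474), and all 3 passed. That array, the lowest of its group for each gene, was picked after the values were seen. These calls therefore add no support for Cox8b and Cox7a1, which did not pass on all arrays.

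The same arrays differed in the markers of mature myofibres. The mean of the 16 myofibre markers was 7.40, 9.71 and 9.86 on the 3 day 8 satellite arrays, and 7.02, 6.72 and 7.04 on day 0. Summed, the list ran from 2174 to 3301 on day 0 and from 5163 to 29140 on day 8, with at least 14 of the 16 above the array median on each of these arrays. The part of myofibre RNA in the isoform values, or in the day 8 rise of the other members, was not tested. The widely expressed partners gave smaller differences on day 8: Cox7a2 rose by 0.90 (adjusted p = 0.021), Cox8a differed by 0.34 (interval -0.08 to 0.76) and Cox6a1 by 0.02 (interval -0.30 to 0.34). Leaving out all isoform genes, 20 of 67 members rose on day 8 and 14 of 67 on day 4, where 5.87% and 9.34% of all genes tested rose. The medians of these members were 0.54 and 0.49. Their mean over the day 8 satellite arrays ran from 8.26 to 8.62. The mean over all members was lowest on replicate 1 as well, at 8.12, and reached 8.58 on the other arrays.

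**Figure D4:**
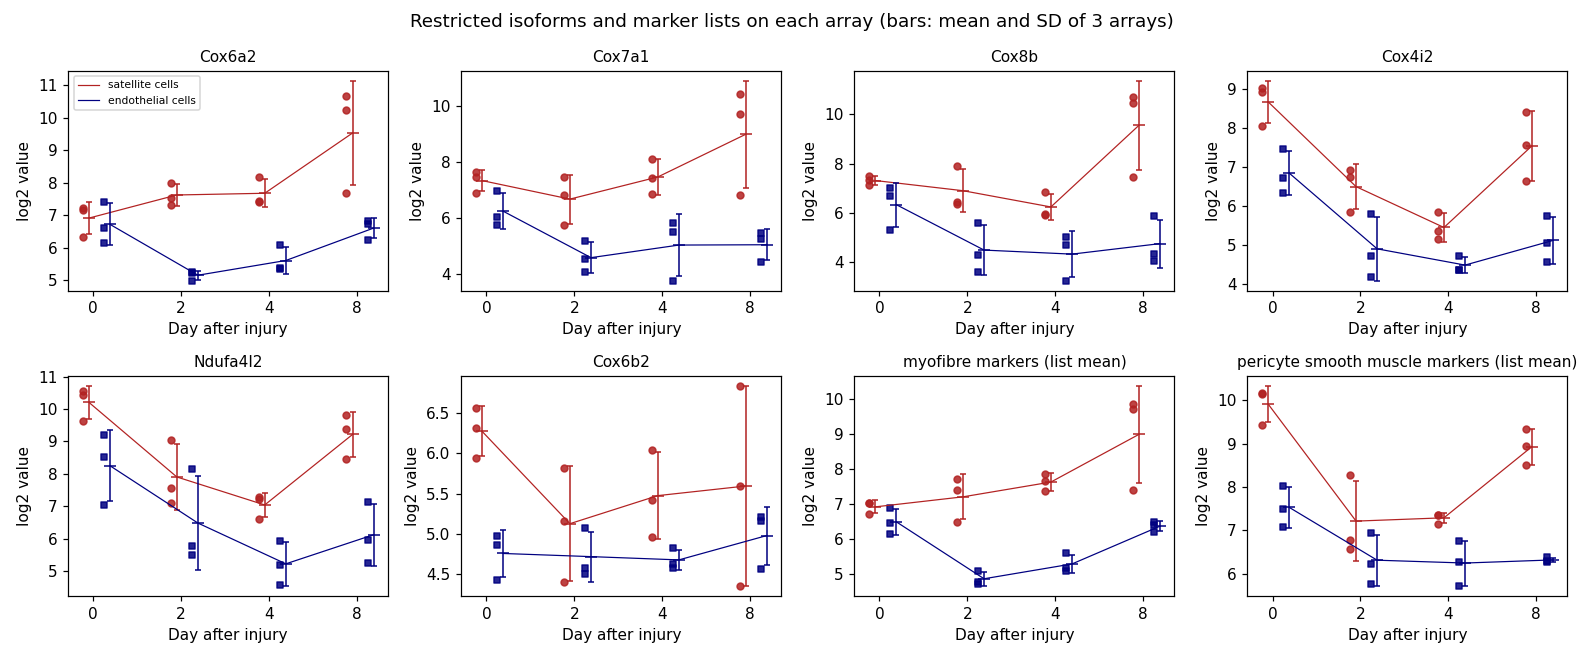
Log2 values of 6 complex IV isoform genes and the mean log2 value of the myofibre and the pericyte and smooth muscle marker lists on each array by day (red circles, satellite cells; blue squares, endothelial cells; lines and bars, mean and SD of 3 arrays). On day 8 satellite replicate 1 is low for Cox6a2, Cox7a1, Cox8b and the myofibre list, and Cox4i2 and Ndufa4l2 are lowest on day 4 in satellite cells.

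Compared on the same day, satellite cells carried more of these transcripts than endothelial cells on days 4 and 8. On day 8, 41 of 82 members were higher in satellite cells and none lower, where 9.41% of all genes tested were higher and 9.30% lower. A log2 difference of at least 1 was reached by 16 of the 82, where 7.05% of all genes tested were higher by that much. The median was 0.74 (all genes, -0.03) and 78 of 82 differences were positive. The groups did not overlap, with satellite cells higher, for 52 members, against 16.3% of all genes. By complex, 16 of 33 members of complex I were higher, 5 of 8 of complex III, 10 of 17 of complex IV and 9 of 12 of complex V, but none of complex II and 1 of the 8 assembly factors (Ndufaf4). Between 34 and 44 members were called when any 1 array was left out.

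Among these, Ndufb2, an accessory subunit of complex I, read 9.52, 9.64 and 9.74 in satellite cells and 8.18, 7.81 and 7.46 in endothelial cells, a difference of 1.82 (SE 0.22, 3.52-fold, adjusted p = 6.03e-06). Atp5mpl differed by 1.19 (SE 0.18, 2.29-fold, adjusted p = 8.03e-05), with 9.75, 10.17 and 10.19 against 9.06, 8.54 and 8.92. Cyc1 read 8.47, 8.88 and 8.56 in satellite and 7.33, 7.92 and 7.77 in endothelial cells (difference 0.97, adjusted p = 0.0034). The groups were apart for all 3 genes. Ndufs1, at 1.07, and Ndufv1, at 0.91, passed here (adjusted p = 0.0116 and 0.0383), but their groups overlapped. The isoforms gave the widest gaps: Cox8b differed by 4.78 (adjusted p = 6.92e-05), Cox7a1 by 3.95, Ndufa4l2 by 3.10, Cox6a2 by 2.93 and Cox4i2 by 2.43. For Cox8b, endothelial values of 5.88, 4.06 and 4.34 lay close to the array medians, so the gap is given with no fold. On day 8 the myofibre markers summed to 5163 to 29140 in satellite and 1805 to 2824 in endothelial cells. The pericyte and smooth muscle markers summed to 8941 to 12570 and 2343 to 2493. The part of such cells in these gaps was not tested.

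On day 4, 22 members were higher in satellite cells and none lower (7.34% and 9.81% of all genes tested), with a median of 0.46 (all genes, 0.02). Cyc1 had a difference of 1.14 (SE 0.22, 2.20-fold, adjusted p = 0.000804) and Atp5g3 of 1.05 (SE 0.18, 2.08-fold, adjusted p = 0.000232). For both genes every satellite array lay above every endothelial array. Complex V had 7 of 12 members higher and complex II none of 4. The count was 11 without satellite day 4 replicate 3, 13 without endothelial day 4 replicate 2, 14 without endothelial day 4 replicate 1 or satellite day 4 replicate 2, and 12 (11 higher, 1 lower) with each array centred on its median. Centring moved the median of all genes by over 0.1 in this comparison, from 0.02 to -0.10, and to -0.17 on day 0, -0.15 on day 2 and 0.17 in the day 8 difference between responses.

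Before injury 9 members were higher in satellite cells and 1 lower, where 10.0% of all genes tested were higher and 12.5% lower, and the median was 0.15. The share of members that were higher is near that of all genes. The higher members were Ndufa4l2 (1.96), Cox4i2 (1.83), Cox6b2 (1.51), Ndufa10, Atp5mpl, Cox8a, Ndufb6, Ndufa12 and Ndufa13, and Atp5j, a peripheral stalk subunit, was lower by a log2 difference of -0.54. The split was 5 higher and 3 lower after centring each array and 20 higher and 0 lower after quantile normalization was repeated. It was 6 in all without satellite day 0 replicate 2, satellite day 0 replicate 3 or endothelial day 0 replicate 3. Cox6b2, an isoform known from testis, read 5.95, 6.31 and 6.56 in satellite cells and 4.87, 4.98 and 4.43 in endothelial cells. Pericyte and smooth muscle markers on day 0 summed to 14510 to 21390 in satellite cells and 4659 to 7431 in endothelial cells. The part of such cells in the differences of Ndufa4l2 and Cox4i2 was not tested.

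On day 2 the cell types differed in 5 members, with 6.73% of all genes tested higher in satellite cells and 8.16% lower. Cox6a2 (2.47), Cox8b (2.40), Cox7a1 (2.09) and Cox4i2 (1.60) were higher and the assembly factor Ndufaf1 was lower (-1.07, adjusted p = 0.0271). The median was -0.06, and the split was 3 higher and 2 lower after centring each array. Without endothelial day 2 replicate 1 or satellite day 2 replicate 2 the count was 3, and it was 2 without satellite day 2 replicate 3 or endothelial day 2 replicates 2 or 3. The endothelial values of Cox6a2 were 5.25, 5.23 and 4.99 on day 2, below their 7.42, 6.15 and 6.60 on day 0, and the myofibre list in the same cells averaged 4.88 on day 2 and 6.50 on day 0.

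**Figure D5:**
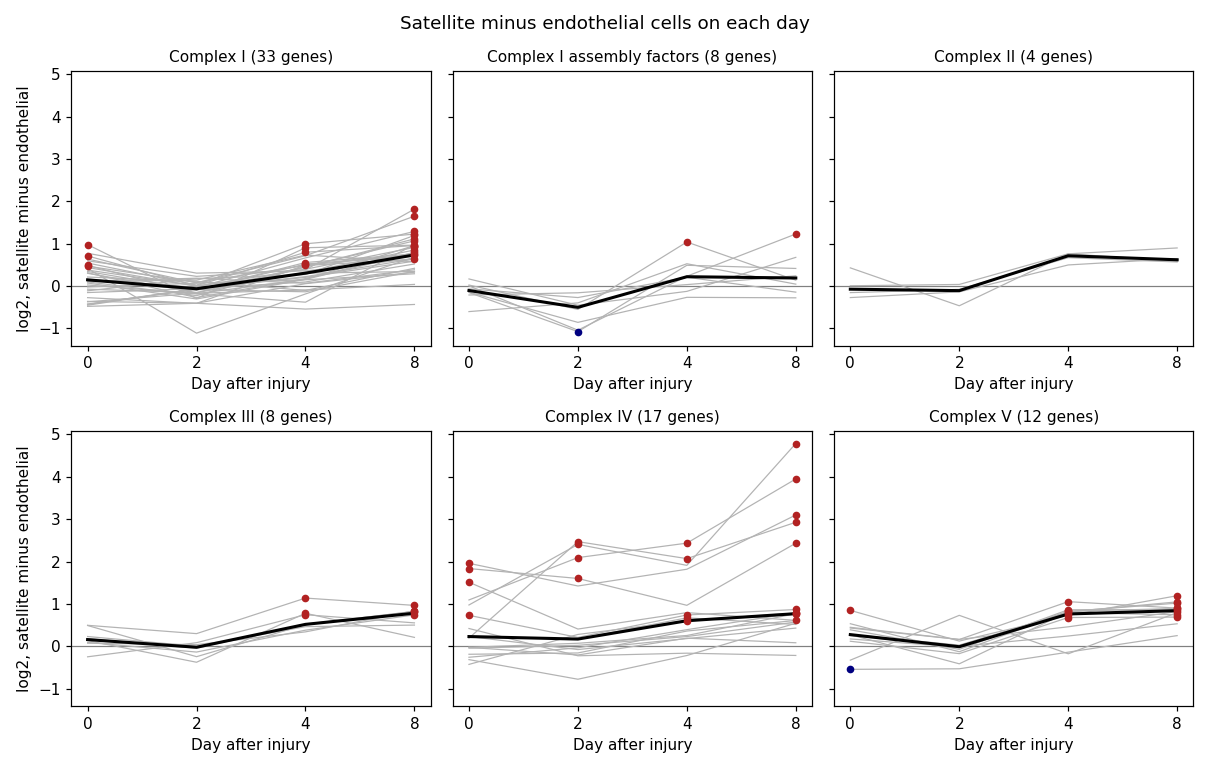
Log2 difference between satellite and endothelial cells on days 0, 2, 4 and 8 for each tested member (grey lines), by complex; black lines are medians, red points were higher in satellite cells and blue points lower. The medians of complexes I to V lie above 0 on days 4 and 8, and the widest differences are those of complex IV isoforms on day 8.

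Whether the cell types responded differently was tested as the difference between their changes from day 0. Few members passed. On day 2, the satellite minus the endothelial change was positive for Cox6a2 (2.28, SE 0.73, adjusted p = 0.0457) and Ndufa4 (0.71, SE 0.23, adjusted p = 0.0488) and negative for Ndufa10 (-1.27, SE 0.32, adjusted p = 0.0126), where 6.67% of all genes tested were higher and 5.20% lower. Cox6a2 differed from day 0 by 0.71 in satellite and -1.56 in endothelial cells, and neither passed alone (adjusted p = 0.339 and 0.0621). For Ndufa10 the differences were -0.31 and 0.96, of which the endothelial one passed. The day 2 split of 2 higher and 1 lower was 1 and 1 after centring and 0 and 5 when quantile normalization was repeated, and the Cox6a2 and Ndufa4 calls were lost in 20 and 28 of 34 settings. On day 4, Ndufa4 alone passed, at 1.03 (SE 0.23, adjusted p = 0.0105; 2.02% of genes higher, 2.25% lower). On day 8, Ndufb8 (1.31, adjusted p = 0.011), Ndufb2 (1.22, adjusted p = 0.0458) and Ndufa4 (1.21, SE 0.23, adjusted p = 0.00529) passed, where 1.40% of genes were higher and 0.818% lower. The day 8 median was 0.58 (all genes, 0.03), and 75 of 82 differences were positive. The day 8 count of 3 was 6 without satellite day 8 replicate 1 and 5 without endothelial day 8 replicate 1, and the day 4 count was 2 without satellite day 8 replicate 1. On day 2 leaving out 1 array cut the count to 1 in 16 of 24 cases, all but satellite day 0 replicate 3, day 2 replicate 2, day 4 replicate 1 and all of day 8, and endothelial day 0 replicate 2 and day 4 replicate 1.

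Ndufa4 was the member that passed on all 3 days, and on day 8 it kept its call in every setting tried. Ndufb8, an accessory subunit of complex I, read 9.08, 9.51 and 9.42 on day 0 and 10.22, 9.80 and 10.56 on day 8 in satellite cells, and 9.46, 9.62 and 9.26 on day 0 and 9.13, 8.99 and 8.88 on day 8 in endothelial cells. The satellite arrays were higher after injury and the endothelial arrays lower, with no overlap in either cell type. The endothelial change of -0.45 did not itself pass (adjusted p = 0.296).

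Other genes of mitochondrial energy supply were followed beside the members. Genes with symbols starting with Mrpl or Mrps were taken as those of mitochondrial ribosomal proteins, which translate the subunits encoded in mitochondrial DNA. Of 75 such genes tested, 8 rose in satellite cells on day 2 (10.7%, against 14.7% of all genes), with 1 lower. On day 4, 17 rose (22.7%, against 9.34%) and 1 fell, and on day 8, 6 rose (8.00%, against 5.87%). Mrpl13 had the largest rise on day 4 (1.67, SE 0.31, limma adjusted p = 0.000691). Mrps36, on the list by its symbol only, fell by 1.21. In endothelial cells 12 of 75 rose on day 2 (16.0%, against 5.08%), among them Mrps18b (1.82) and Mrps28 (1.79), 2 on day 4 (2.67%, against 3.75%) and none on day 8.

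Of 18 genes of the citric acid cycle and pyruvate dehydrogenase, Idh2 and Mdh2, which make NADPH and NADH in the mitochondrion, rose in satellite cells on day 4, by 1.09 and 0.95, and Mdh2 on day 8, by 0.74. These are 11.1% and 5.56% of the list, near the 9.34% and 5.87% of all genes. On day 8, 9 of the 18 (against 9.41% of all genes) were higher in satellite than in endothelial cells, led by Idh2 (1.50, SE 0.24, adjusted p = 0.000124) and Idh3a (1.50), which takes part in the NADH-forming isocitrate step. Of 21 carriers, 5 rose in satellite cells on day 4 (23.8%, against 9.34%), with Coq4 (1.46) and Coq3 (1.38), both of ubiquinone synthesis, in front, and Vdac3 (1.35), a channel of the outer membrane, was the single one on day 8 (4.76%, against 5.87%).

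Assembly factors outside the member symbols rose in satellite cells for 9 of 37 at day 2 (24.3%, against 14.7% of all genes), for 4 at day 4 (10.8%, against 9.34%) and for 3 at day 8 (8.11%, against 5.87%). The shares of days 4 and 8 are near those of all genes. They were led by Coa4 (1.55) and Coa5 (1.35) on day 2 and by Coa7 (1.77) and Coa3 (1.36) on day 4, all of complex IV assembly. Among 18 regulators of mitochondrial biogenesis, none rose in satellite cells in limma's test. Ppargc1a, the coactivator PGC-1alpha, fell by 1.66 on day 2 (SE 0.25, adjusted p = 4.06e-05) and by 1.75 on day 4 (SE 0.25, adjusted p = 4.68e-05), and no regulator passed on day 8. The Ppargc1a signal was dim in endothelial cells, with means of 2.90 on day 0 and 3.01 on day 8, below every array median. In endothelial cells Myc, a transcription factor of cell growth, rose by 3.76, 3.43 and 2.34 on days 2, 4 and 8, and Pprc1, a coactivator related to PGC-1alpha, by 1.60 and 1.17 on days 2 and 4.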

How the data were processed

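The authors deposited log2 values summarised with RMA (background correction, quantile normalization and a summary per probe set), per the submitters' processing notes, which name RMA with no version. RMA normalization is meant to make array distributions alike, so that values show change relative to the other genes. The deposited arrays were not fully alike, with medians from 4.115 to 4.401. Repeating quantile normalization turned satellite day 2 from 7 members higher and 2 lower to 1 and 6. Before injury the split between cell types went from 9 and 1 to 20 and 0. The table holds 24479 probe sets and 1198 have no symbol in the platform annotation. All 84 members have the same symbol in RefSeq's table. The 3 symbols marked -ps were left out.

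Groups came from the sample titles. A gene was tested if its log2 value was above the array median on at least 3 arrays, with the brighter probe set kept where 2 shared a symbol, which left 14064 genes. A single limma fit (version 3.58.1, R 4.3.3) with eBayes took all 24 arrays and a mean for each group, leaving 16 residual degrees of freedom. Tests were two-sided, with Benjamini-Hochberg adjustment over all genes tested in a comparison; a gene was called, and said to rise or fall, at an adjusted p under 0.05. The fit was tested on simulated data. Comparisons share the day 0 arrays of a cell type. Folds are given where the lower group mean was at least 1 above the array medians.

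Members, gene lists and alternatives were chosen with earlier results of these data known. Named genes are complex IV isoforms, core subunits, the largest called rise and fall per complex and comparison whose groups do not overlap, and up to 2 called genes each way of the other lists; further names were chosen after their values were seen. The number of arrays limits the precision.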

Additional observations from a re-analysis of the deposited data

Results flagged for a closer look

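Differences between the responses of the 2 cell types that passed the test of the difference itself (limma, change from day 0 in satellite cells minus that in endothelial cells) stand out among the members. On day 2 they were 2.28 for Cox6a2, 0.71 for Ndufa4 and -1.27 for Ndufa10, which read 7.90, 8.16 and 7.14 in endothelial cells on day 0 and 8.73, 8.65 and 8.70 on day 2. In satellite cells Ndufa10 read 8.99, 8.53 and 8.61 on day 0 and 8.39, 8.49 and 8.32 on day 2. On day 4 the difference was 1.03 for Ndufa4. On day 8 the differences were 1.21 for Ndufa4, 1.22 for Ndufb2 and 1.31 for Ndufb8. Leukocyte, myofibre and pericyte markers moved over the same days, and their part in these values was not tested.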

How the results depend on the processing

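None of the 93 named differences that were called changed sign under the alternatives tried. Of these, each compared under up to 34 settings (3162 comparisons), 2744 kept their call and 418 lost it. Many of these comparisons could not change a sign. Leaving out an array of a group not in the comparison changes no difference and no median over the members. Changing the filter, the call rule or the eBayes settings also leaves each difference as it was. Of the 13 medians over the members, 421 of 429 comparisons moved by less than the spread between replicates and 8 moved by more. The median of satellite cells on day 2 went from 0.08 to -0.14 when quantile normalization was repeated.

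Counts of called members moved by more than 1.5 times as follows. Requiring a log2 difference of at least 1 left 2, 5 and 4 in satellite cells on days 2, 4 and 8, 2 and 2 in endothelial cells on days 2 and 4, and 3, 5 and 16 between cell types on days 0, 4 and 8, by construction. Fitting only the groups of the comparison, with fewer samples for the spread, gave 2, 6 and 2 in satellite cells on days 2, 4 and 8. In endothelial cells it gave 2 on day 4 and 0 on day 8, between cell types 5, 2 and 14 on days 0, 2 and 4, and for the difference between responses 1, 0 and 1. For the settings that follow, the cause was not tested. Centring each array gave 12 between cell types on day 4 and 5 for the day 8 response difference. Repeated quantile normalization gave 0 in endothelial cells on day 8, 20 between cell types on day 0 and 5 for the day 2 response difference. eBayes with trend and robust settings gave 14 in endothelial cells on day 2 and 5 for the day 2 response difference, and no filter gave 0 in endothelial cells on day 8. Leaving out together satellite day 2 replicate 2, satellite day 8 replicate 1 and endothelial day 0 replicate 3 was an alternative chosen after seeing the data. It gave 5 in satellite cells on day 2, 2 in endothelial cells on day 8 and 5 between cell types on day 0. For the response differences of days 4 and 8 it gave 2 and 5.

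Leaving out 1 array at a time gave 4 to 11, 12 to 23 and 14 to 27 calls in satellite cells on days 2, 4 and 8, and 4 to 12, 2 to 6 and 0 to 2 in endothelial cells. Between cell types it gave 6 to 11, 2 to 6, 11 to 27 and 34 to 44 on days 0, 2, 4 and 8, and for the response differences 1 to 3, 1 to 2 and 2 to 6.

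The replicate numbers share no stated animal or batch, and deviations of same-numbered arrays correlated over 0.1 in 4 of 12 pairs (range -0.06 to 0.20), so they were not taken as pairs. With the title number as a block, 0 members were called in endothelial cells on day 8 and 1 in the day 2 response difference. With the day and the number in the description label as a random block these were 0 on day 8 and 5 for the day 8 response difference. The blocks moved no other count of calls by over 1.5 times. Values near the array medians limit what can be said of the lowest genes.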
